A study of Mus musculus with 2 samples.

Results

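The 9 genes described here, Tmcc2, Tcp11l2, Slfn14, Tbcel, Fam46c, Fam214b, Gpcpd1, Gadd45a and Ccng2, are late erythroblast genes of the mouse fetal liver. They are 9 of the 27998 genes in the count table, of which 17768 had a UMI (a unique molecular identifier, which stands for 1 captured RNA molecule) in some cell. The genes were chosen by their measured levels in these same cells, as genes that ranked high in clusters of late erythroid cells. Their height in late cells is therefore a description and was not tested. All 9 had at least 50 UMIs in the Ter119-high cells, the minimum used here for comparison with other genes.

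The cells came from C57BL/6 fetal livers at e13.5, pooled from several embryos, with no treatment or genotype contrast. Ter119+ cells were removed with magnets and then mixed back in, in a number equal to that of the Ter119- cells, so the share of Ter119-high cells was set by the preparation and is not that of the liver. In CITE-seq, barcoded antibodies are counted next to the RNA of each cell. Here 1 cDNA library and 1 antibody library shared the same 7863 barcodes, and no replicate library was analysed. All intervals given are exact 95% intervals that reflect counting error alone and leave out differences between embryos, pools or libraries. Those of levels and ratios treat each UMI as independent and leave out differences between cells too. They are therefore too narrow where the cells of a group differ.

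Terminal erythroid differentiation turns a dividing progenitor into a small cell filled with hemoglobin. Ter119 appears on the surface as the erythroblast forms, and CD71, the transferrin receptor that brings in iron, is lost as the cell matures. Over the same period erythroblasts leave the cell cycle, condense the nucleus, dismantle organelles and the cytoskeleton, and come to hold globin RNA above all other RNA. Gadd45a, a gene induced by growth arrest and DNA damage, and Ccng2, an unconventional cyclin linked to cell cycle arrest, belong to cell cycle exit, and both are known targets of FoxO transcription factors. Slfn14 encodes a ribosome-associated endoribonuclease, and Fam46c (Tent5c in current nomenclature) a non-canonical poly(A) polymerase. Tmcc2 encodes a coiled-coil protein of the endoplasmic reticulum, Tbcel a protein that promotes the breakdown of tubulin, and Gpcpd1 an enzyme that cleaves glycerophosphocholine. Tcp11l2 and Fam214b are little characterised.

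Of the 7863 barcodes, 7244 passed the quality limits and the doublet call, and 6424 of these were low for the 5 lineage antibodies. Among the latter, 1736 cells had a Ter119 count of at least 89 and are called Ter119-high. They were shallower than the other lineage-low cells, with a median of 4201 UMIs against 6866.5, and the shallowest deposited cell had 2510 UMIs. The Ter119-high cells were split into 6 equal groups by CD71 count, numbered from sixth 6 (highest, median CD71 count 2356) to sixth 1 (lowest, median 88), with 289 or 290 cells in each. Median depth was 5292 UMIs in sixth 6 and 3815 in sixth 1. Over the same sixths the globin share of all UMIs went from 30.2% to 71.4%, and the mean number of non-globin UMIs per cell from 4330 to 1167.

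Because globin RNA took up so different a share, each gene is given on 3 scales. CPM is the summed count of the gene per 1000000 UMIs of the group. The non-globin scale is the same count per 1000000 UMIs of all genes but the 10 globin genes. UMIs per cell is the summed UMIs divided by the number of cells. The first and second are levels relative to other RNA, whereas the last is the number of molecules counted.

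All 10 erythroid markers had UMIs in the Ter119-high cells. Alas2, the erythroid enzyme that starts heme synthesis, was at 1856 CPM in them against 92.7 CPM in S1 cells (late progenitors with low Ter119 and high CD71), and Slc4a1, the band 3 anion exchanger of the red cell membrane, at 601 against 123 CPM. The transcription factor genes Gata1 (139 against 203 CPM) and Klf1 (508 against 634 CPM) were lower in CPM than in S1 cells. So was Epor, the erythropoietin receptor gene (80.2 against 161 CPM). CPM counts globin, which was 49.8% of the UMIs of Ter119-high and 2.8% of those of S1 cells. The median CPM ratio of Ter119-high over S1 cells was 0.368 over all genes, so no loss of an earlier program is read from these genes. Cells in clusters named for non-erythroid types numbered 0 to 2 in each sixth. All 10 hepatocyte markers had UMIs in every sixth, with a summed level of 506 to 1874 CPM against 98558 CPM in hepatocyte-like cells. Of the 10 macrophage markers, 8 or 9 had UMIs in each sixth, with Cd163 at 0 throughout, and their summed level was 519 to 692 CPM against 17694 CPM in macrophage-like cells. Of the 10 myeloid markers, 9 or 10 had UMIs, and their sum went from 121 CPM in sixth 6 to 271 CPM in sixth 1, against 20373 CPM in myeloid-like cells. The 10 megakaryocyte markers (9 or 10 with UMIs) summed to 122 to 220 CPM against 23444 CPM in megakaryocyte-like cells. The part of such RNA in the levels of the 9 genes was not tested beyond the subtraction given with the alternatives. That subtraction cannot tell stray RNA from RNA that the non-erythroid classes hold themselves.

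Clustering without the antibody counts placed the genes mainly in 3 late clusters, none of which took a name from the marker lists. Cluster 11 (619 cells, median 3369 UMIs, 59.96% globin) was the shallowest of all 17 clusters, and 8 of the 9 genes ranked among its top 50 by fold over the other cells. Tmcc2 ranked 1, Tcp11l2 3, Slfn14 4, Tbcel 8, Gadd45a 9, Fam46c 11, Fam214b 16 and Gpcpd1 19. Ccng2 stood outside this limit at rank 128, and had its best rank, 10, in cluster 10 (457 cells, median 4423 UMIs, 45.5% globin), where Fam214b ranked 2, Gpcpd1 9, Slfn14 30 and Tbcel 34. In cluster 12 (445 cells, 75.3% globin), which was led by Bpgm and adult globin genes, only Tcp11l2 (rank 14), Fam46c (rank 12) and Fam214b (rank 44) of the 9 were still among the top 50. In the primitive erythroid-like cluster 16 (75 cells, 81.7% globin), Tcp11l2 (rank 24), Fam46c (rank 29) and Ccng2 (rank 44) were among the top 50. Cluster 11 is thus the one that the label of shallow late cells describes, and Ccng2 ranked higher in a deeper cluster. Because the genes were chosen as leading genes of late clusters of these data, their ranks restate that choice.

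Different clusters held most of the cells at the 2 ends of the CD71 range. Sixth 6 was made up of cluster 0 (44.1%), cluster 10 (28.3%) and smaller shares of clusters 11 and 2. Sixth 3 had its largest share in cluster 11 (41.9%). Sixth 1 was mostly cluster 12 (56.2%) with cluster 11 (32.1%) and the primitive erythroid-like cluster 16 (6.90%).

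The 9 genes are not neighbours. They lie on 9 different chromosomes in the RefSeq annotation of GRCm38.p6, the assembly behind mm10, and span from 2312 bases (Gadd45a, chromosome 6, 67035096 to 67037407, minus strand) to 59923 bases (Tbcel, chromosome 9, 42412316 to 42472238, minus strand). Tmcc2 lies on chromosome 1 at 132356315 to 132391923 (minus strand). Slfn14 lies on chromosome 11 at 83275110 to 83286726 (minus strand) and Tcp11l2 on chromosome 10 at 84576947 to 84614355 (plus strand).

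RefSeq promoter windows, which run from 250 bases before to 50 bases after an annotated start, were found for 8 of the 9 genes, 13 windows in all; none was found for Gpcpd1. They were searched on both strands for GATA letters, which were AGATAA with its variant form AGATAG, and also TGATAA with its variant form TGATAG, since GATA1 is the leading erythroid transcription factor. Windows of 2 of the 8 genes held such letters, against 33.0% of all 27025 genes with a window (29.8% of 32851 windows). The 2 windows are shown because they are the only ones of the 9 genes with these letters, which stand in capitals. The first is the window of the downstream start of Tmcc2, chr1:132367899-132368198, read on the minus strand, with matches beginning at positions -52 and -33 from the start. The other is that of Slfn14, chr11:83286677-83286976, also read on the minus strand, with a match at -73. Capitals that begin with TTATC are the listed letters read on the opposite strand.
Tmcc2, window 3: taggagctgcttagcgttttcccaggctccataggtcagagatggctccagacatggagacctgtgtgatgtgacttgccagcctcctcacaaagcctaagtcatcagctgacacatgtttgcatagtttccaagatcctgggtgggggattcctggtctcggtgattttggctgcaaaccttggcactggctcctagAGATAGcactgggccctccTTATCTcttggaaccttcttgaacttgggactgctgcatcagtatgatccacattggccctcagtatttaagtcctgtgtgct
Slfn14: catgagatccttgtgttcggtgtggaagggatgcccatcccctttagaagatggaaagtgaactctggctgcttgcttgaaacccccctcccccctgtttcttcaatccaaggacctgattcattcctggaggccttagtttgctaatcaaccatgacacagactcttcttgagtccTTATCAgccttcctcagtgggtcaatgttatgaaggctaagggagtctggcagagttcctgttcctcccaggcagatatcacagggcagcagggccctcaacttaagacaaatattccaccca

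The KLF letters CCNCNCCC were in windows of 6 of the 8 genes, against 51.9% of all genes, and the E-box CANNTG in those of 5 of 8, against 74.99%. The FOX letters GTAAACA were in none of the 8, against 4.05% of all genes. A match describes letters and is not a bound site, and a missing match says only that the letters are not in this window.

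Across the antibody-defined stages, the 9 genes were low in progenitors and high in Ter119-high cells. S0-low, S0-medium and S1 cells are Ter119-low cells of low, middle and high CD71, and S2 cells have middle Ter119 and high CD71. Together the 9 genes made up 0.0123% of the UMIs of S0-low cells. The share was 0.0158% for S0-medium, 0.0220% for S1, 0.0551% for S2 and 0.302% for Ter119-high cells. Within the latter the summed share was 0.154% in sixth 6, 0.246% in sixth 5, 0.333% in sixth 4, 0.410% in both sixth 3 and sixth 2, and 0.328% in sixth 1. Of the non-globin UMIs they made up 0.220% in sixth 6 and 1.15% in sixth 1. The summed share was thus highest at middle to low CD71 on the first scale and at the lowest CD71 on the other.

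**Figure D1:**
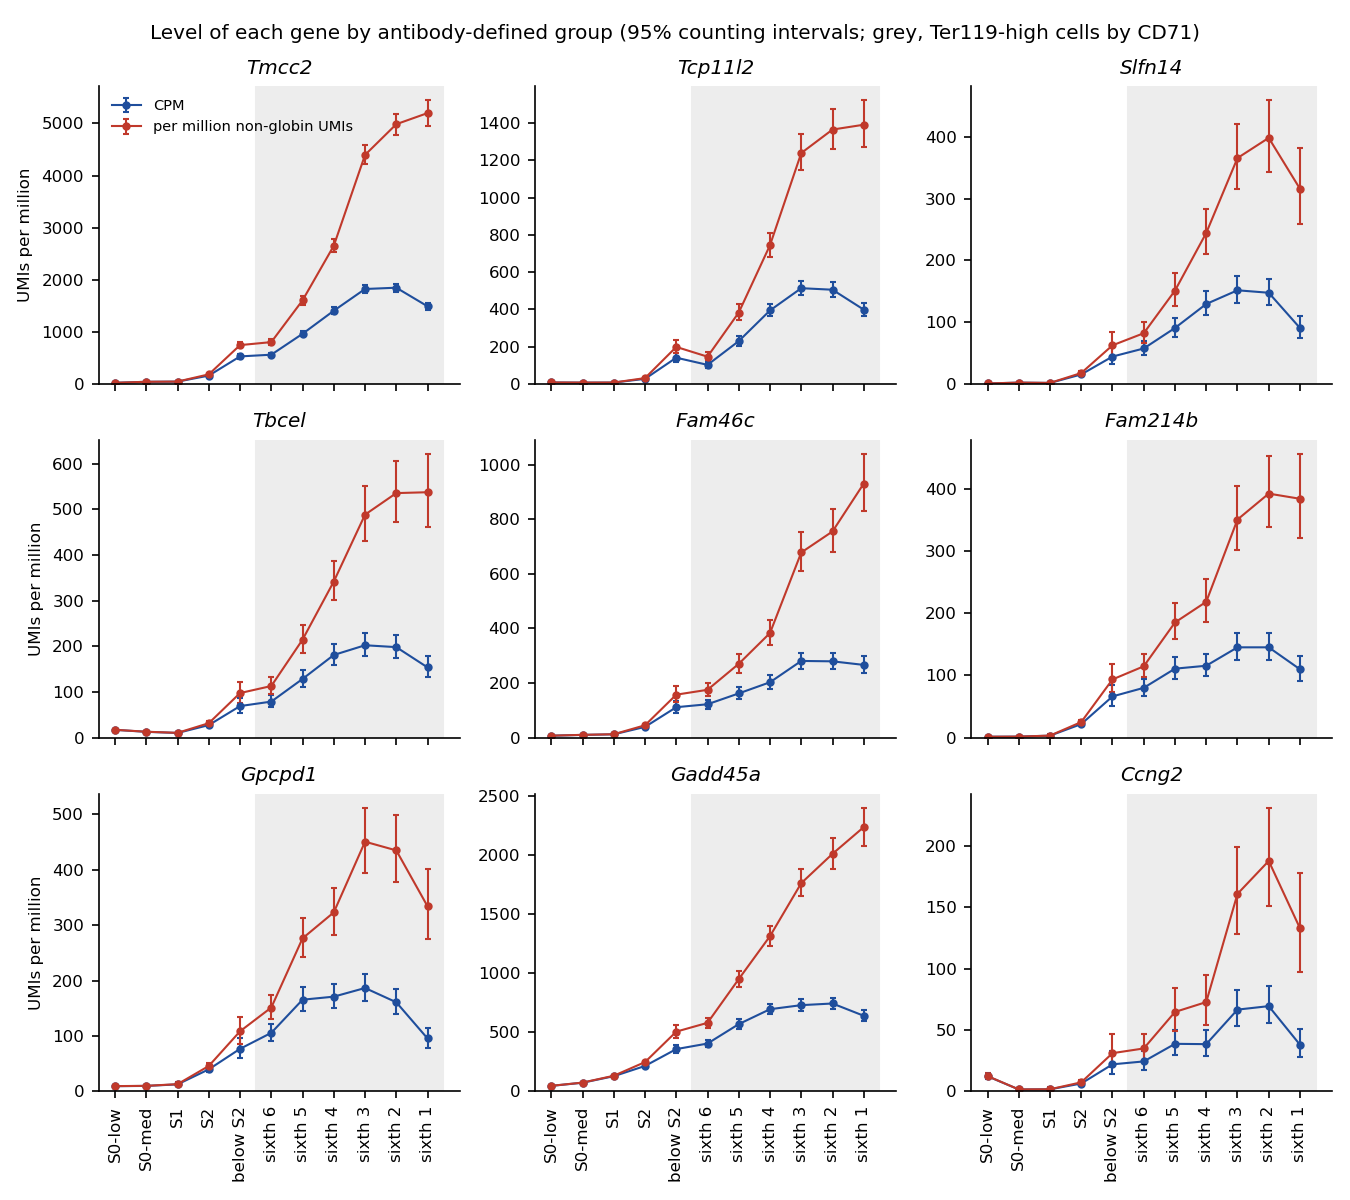
Level of each gene in 11 groups of lineage-low cells, from S0-low to CD71 sixth 1, in CPM (blue) and on the non-globin scale (red). Points are pooled levels and bars exact 95% counting intervals from 1 library; the grey band marks the Ter119-high cells, where CPM peaked in sixth 3 or 2 for all 9 genes while the non-globin level of 5 genes was highest in sixth 1.

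Every one of the 9 was at least 2-fold higher in Ter119-high than in S1 cells, in CPM and on the non-globin scale, where 3.98% and 9.86% of 7838 genes were. The genes were chosen on this height, so the count is given as a description. In CPM the ratios ran from 4.77 (Gadd45a) to 74.7 (Slfn14), with a median of 25.2, beside a median of 0.368 over all genes. The Slfn14 ratio (39.2 to 163.9) rests on 9 UMIs in S1 cells. Tcp11l2 and Ccng2 had less in S1 (6.73 and 1.76 CPM) than in hepatocyte-like cells (10.2 and 4.875 CPM). Fam46c and Gpcpd1 had about as much (12.2 and 12.8 against 11.5 and 12.0 CPM). Such S1 levels cannot be told apart from free RNA, so the order of these ratios is not resolved.

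Gadd45a had the most UMIs of the 9 in S1 cells, 807. It had 47.3 CPM in S0-low cells, and 74.1, 129 and 216 CPM in S0-medium, S1 and S2 cells in turn. In the Ter119-high cells it was at 405, 570, 696, 730, 744 and 640 CPM from sixth 6 to sixth 1. Gadd45a thus had the smallest ratio of Ter119-high over S1 cells among the 9, 4.77 (4.42 to 5.14). The number of Gadd45a UMIs per cell was about equal at both ends of the CD71 range, at 2.51 in sixth 6 and 2.61 in sixth 1, a ratio of 1.04 (0.937 to 1.15).

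Ccng2, its partner in cell cycle exit, was the rarest of the 9, with 372 UMIs in all Ter119-high cells. From sixth 6 to sixth 1 it was at 24.5, 38.8, 38.5, 66.7, 69.5 and 38.1 CPM. Sixths 3 and 2 were the high ones, and sixth 1 was at 0.548 (0.374 to 0.792) of sixth 2. For each gene the peak was picked as the highest of the 6 sixths by the same counts. A ratio of sixth 1 over the peak is therefore at most 1, and its interval leaves out this picking. Ccng2 was higher in S0-low cells (12.4 CPM) than in S0-medium (1.65 CPM) and S1 cells (1.76 CPM), so its profile had a low middle. Of the S0-low cells, 227 were in clusters named for non-erythroid types, against 4 of the S0-medium cells, and their part in this was not tested. Ccng2 had 47.6 CPM in megakaryocyte-like and 43.9 CPM in myeloid-like cells, about the 44.5 CPM of the Ter119-high cells. This gene was therefore not restricted to late erythroblasts.

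Slfn14, the endoribonuclease gene, had the highest CPM ratio of Ter119-high over S1 cells, 74.7 (39.2 to 163.9). That interval overlapped the one of Tcp11l2 (37.1 to 69.9). Slfn14 had 7 UMIs in 1510 S0-low cells, 21 in 1054 S0-medium cells and 9 in 612 S1 cells, that is 0.603, 1.93 and 1.44 CPM. From sixth 6 to sixth 1 the level was 57.3, 90.5, 129, 152, 148 and 90.5 CPM. Sixth 1 was thus back at the level of sixth 5 and at 0.597 (0.467 to 0.760) of the peak in sixth 3. On the non-globin scale the decline from the peak, in sixth 2, was smaller, 0.793, and its interval (0.620 to 1.01) held 1.

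Fam46c, the poly(A) polymerase gene, was near its peak level in sixth 1. It was at 122, 162, 203, 281, 280 and 266 CPM from sixth 6 to sixth 1, and sixth 1 over the peak in sixth 3 was 0.948 (0.812 to 1.11). The other 8 genes had an interval below 1 for the same ratio in CPM, which cannot exceed 1 because the peak was picked by the same counts. On the non-globin scale Fam46c went from 175 in sixth 6 to 931 in sixth 1, the highest of the 6. UMIs per cell were 0.759 in sixth 6 and 1.09 in sixth 1.

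Tmcc2, the endoplasmic reticulum gene, was the most abundant of the 9, with 10767 UMIs in Ter119-high cells. Its level was 42.1 CPM in S1 cells and 158 CPM in S2 cells, and then 559, 960, 1404, 1821, 1846 and 1489 CPM from sixth 6 to sixth 1. Sixths 3 and 2 were the highest and had overlapping intervals. In UMIs per cell Tmcc2 had 3.47 in sixth 6, 8.18 in sixth 2 and 6.07 in sixth 1, so more molecules were counted per cell at low CD71 although the cells were shallower. On the non-globin scale the ratio of sixth 1 over sixth 6 was 6.49 (6.00 to 7.02).

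Tbcel, the tubulin breakdown gene, was at 79.0, 129, 181, 202, 198 and 154 CPM from sixth 6 to sixth 1. The 3 middle sixths, 4 to 2, lay close together, and the ends were lower. In early cells Tbcel had 17.1, 12.8 and 10.3 CPM (S0-low, S0-medium and S1), below the 26.2 CPM in hepatocyte-like cells. Those early levels cannot be told apart from free RNA here.

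Gpcpd1, the glycerophosphocholine enzyme gene, had the lowest CPM ratio of sixth 1 over its peak, 0.513 (0.406 to 0.644) of sixth 3. That interval overlapped the one of Ccng2 (0.374 to 0.792), among others. On the non-globin scale Ccng2 had the lower ratio, 0.708 (0.483 to 1.025) against 0.742 (0.587 to 0.932). Gpcpd1 was at 106, 165, 171, 187, 161 and 95.6 CPM from sixth 6 to sixth 1, so both ends were low and the middle was flat. Gpcpd1 was the only one of the 9 with a CPM in sixth 1 that did not exceed sixth 6, at a ratio of 0.905 (0.710 to 1.15). UMIs per cell were 0.390 there against 0.655, a ratio of 0.595 (0.467 to 0.755), and no other of the 9 had an interval below 1 on that scale.

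Tcp11l2 had the steepest course. From sixth 6 to sixth 1 it was at 102, 229, 394, 513, 505 and 398 CPM, so sixth 1 was about level with sixth 4, and sixth 6 was the lowest. The ratio of sixth 1 over sixth 6 was 3.91 (3.29 to 4.67) in CPM, 9.55 (8.03 to 11.4) on the non-globin scale and 2.57 (2.17 to 3.07) in UMIs per cell. Fam214b, the other little characterised gene, was at 80.1, 111, 116, 145, 145 and 110 CPM. Its UMIs per cell stayed between 0.448 in sixth 1 and 0.644 in sixth 2, and sixth 1 over sixth 6 on that scale was 0.903 (0.707 to 1.15).

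**Figure D2:**
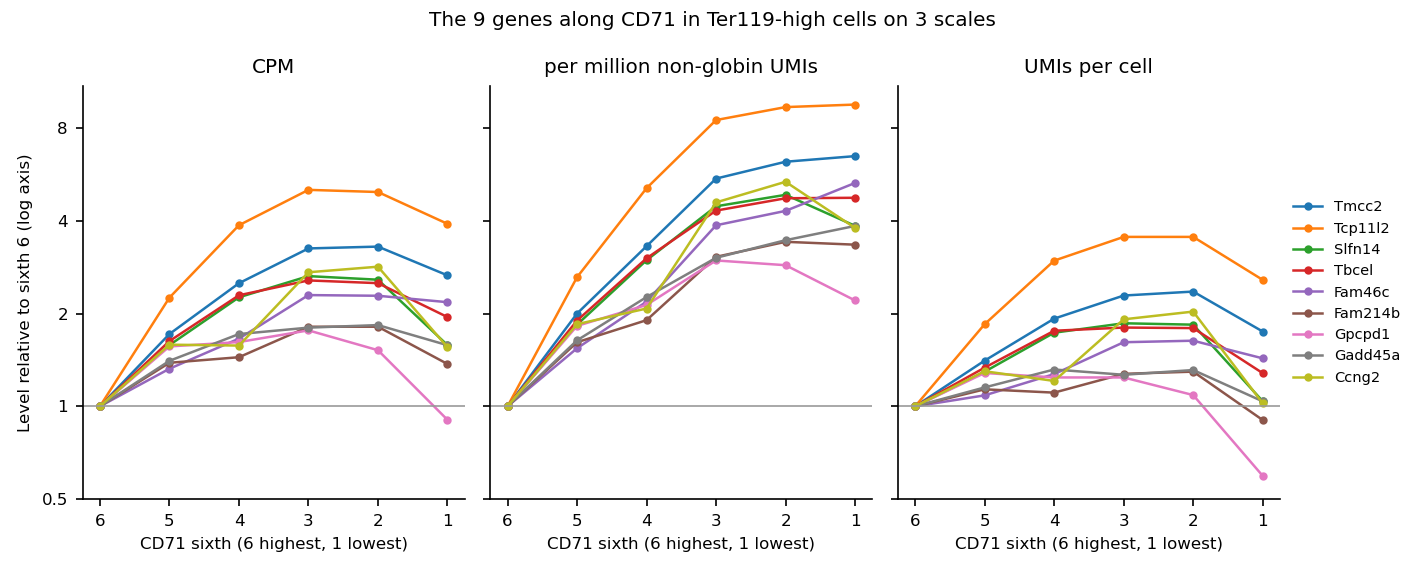
The 9 genes along CD71 in Ter119-high cells on 3 scales, each as the level of a sixth over that of sixth 6 (log axis; 1 pooled value per point). Tcp11l2 lay highest and Gpcpd1 lowest at sixth 1 on each scale, and UMIs per cell at sixth 1 were between 0.595 and 2.57 times those at sixth 6.

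The scale decided how many genes counted as higher at low CD71. In CPM 3 of the 9 (Tmcc2, Tcp11l2 and Fam46c) were at least 2-fold higher in sixth 1 than in sixth 6, beside 1.42% of 5556 genes, and the median ratio of the 9 was 1.58 beside 0.338 over all genes. On the non-globin scale all 9 were, beside 8.89% of genes, with a median of 3.85 beside 0.824. In UMIs per cell 1 of the 9 (Tcp11l2) was, beside 0.45% of genes, with a median of 1.04 beside 0.222. Since the genes were selected on their height in late cells, nothing is read from these counts.

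In UMIs per cell the ratios of the 9 ran from 0.595 to 2.57. On that scale the interval lay above 1 for Tmcc2, Tcp11l2, Tbcel and Fam46c, below 1 for Gpcpd1, and held 1 for Slfn14, Fam214b, Gadd45a and Ccng2. The CPM values depended on where the Ter119 limit was set. With a Ter119 count of at least 150 in place of 89, 0 of the 9 were at least 2-fold higher in CPM and 5 on the non-globin scale. Without the fifth of cells with the most UMIs the counts were also 0 and 5. The share of all genes was not computed for these cell sets, nor for the intervals in UMIs per cell. Whether other genes moved alike is therefore not known.

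**Figure D3:**
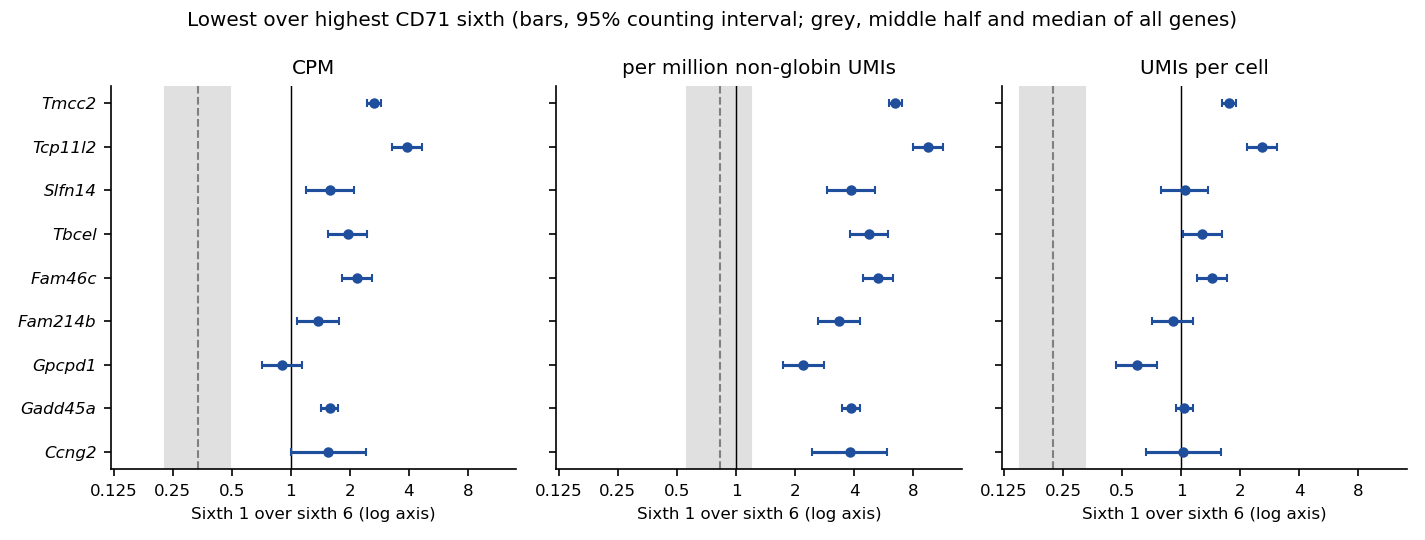
Ratio of the level in CD71 sixth 1 over sixth 6 for each gene on the 3 scales (log axis), with exact 95% counting intervals from 1 library. The dashed line and the grey band give the median and the middle 50% of 5556 genes, with medians of 0.338, 0.824 and 0.222 from left to right; all 9 genes lay to the right of the band on each scale.

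The Ter119 limit cut through a gradient. Tmcc2 was at 381 CPM in the 595 cells with Ter119 counts of 59 to 88, just outside, at 1033 CPM in the 556 cells with counts of 89 to 118, and at 1405 CPM in the 1180 cells above these. Tcp11l2 was at 86.9, 261 and 374 CPM in the same 3 groups. Gpcpd1 differed little above the limit, with 144 and 147 CPM, and had 75.4 CPM below it. The globin share in the 3 groups was 24.6%, 38.8% and 55.0%.

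Depth was compared at like CD71, in the shallower and the deeper cells within each of 3 equal CD71 groups. In CPM, 8, 8 and 9 of the 9 genes were higher in the shallower cells, from the lowest to the highest CD71 group, with intervals above 1, beside 6.71%, 5.42% and 5.74% of 5556 genes. The median ratios of the 9 were 2.11, 1.88 and 2.31. The clusters that chose the genes held these cells too, so nothing is read from these counts. Ccng2 was the exception in the lowest group, at 55.5 CPM in shallower and 53.7 CPM in deeper cells, and in the middle one, where its interval also held 1. Counted per cell the genes parted. Tmcc2 had more UMIs per shallower cell in all 3 CD71 groups (9.17 against 5.07 in the lowest, 8.84 against 5.78 in the middle and 4.97 against 3.38 in the highest), and so had Slfn14 (0.683 against 0.339, 0.751 against 0.526 and 0.490 against 0.325).

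Fam46c and Fam214b had about equal numbers per cell in shallower and deeper cells in all 3 CD71 groups, with intervals that held 1. For Tmcc2 and Slfn14 the shallower cells therefore had more UMIs in all 3 groups, and not only a larger share of UMIs. Tcp11l2 (middle and highest group), Tbcel (lowest and middle) and Gpcpd1 (lowest) also had more there, with intervals above 1. Gadd45a had a ratio of shallower over deeper cells of 1.33 (1.21 to 1.47) in the lowest group and 0.866 (0.783 to 0.957) in the highest. Ccng2 had 0.652 (0.452 to 0.933) in the lowest. The globin share differed by depth too, at 44.6% in shallower and 29.7% in deeper cells of the highest CD71 group, 57.6% and 49.8% in the middle, and 67.4% and 66.8% in the lowest. Their median CD71 counts were 1625 and 1946 in the highest group. Their part in these ratios was not tested.

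Detection was counted after thinning each cell to 2000 UMIs, which all cells reached. Tmcc2 was then found in 46.2% (40.4 to 52.1) of cells in sixth 6 and 54.1% (48.2 to 59.98) in sixth 1, against 2.65% (0.864 to 6.07) of the hepatocyte-like cells, which should lack it. Without thinning these shares were 72.4%, 63.5% and 20.1%, at median depths of 5292, 3815 and 13001 UMIs. The unthinned intervals were 66.9 to 77.5 in sixth 6 and 57.6 to 69.0 in sixth 1. Intervals of the 2 sixths overlapped with and without this thinning, so no order is read from either. Thinned to 500 non-globin UMIs instead, Tmcc2 was found in 33.8% (28.4 to 39.55) of cells in sixth 6 and 52.6% (46.7 to 58.5) in sixth 1. Cells below 500 non-globin UMIs were left out of these shares. The comparison of the sixths thus depended on the scale of thinning.

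Tcp11l2 was found in 17.6% (13.4 to 22.5) of thinned cells in sixth 6 and 41.4% (35.7 to 47.3) in sixth 1, and Fam46c in 23.5% (18.7 to 28.8) and 45.9% (40.0 to 51.8), against 0.529% and 2.12% of hepatocyte-like cells. For Slfn14 the shares were 15.5% (11.6 to 20.2) and 12.4% (8.85 to 16.8), with overlapping intervals, and no order is read from them. A UMI of Slfn14 was found in 0 of 189 thinned hepatocyte-like cells, which allows a share of cells with a UMI of up to 1.59% (3 counts of the total). Gadd45a was found in 50.7% and 52.8% of thinned cells of sixths 6 and 1. Thinned to 500 non-globin UMIs, its shares were 27.9% (22.8 to 33.5) and 50.2% (44.2 to 56.1). In S1 cells Tmcc2 was found in 9.48% (7.28 to 12.1) of thinned cells and Gadd45a in 22.7% (19.5 to 26.2), both above the 2.65% and 4.76% in hepatocyte-like cells. Tbcel was found in 1.96% of S1 cells against 6.35% of hepatocyte-like cells. This comparison cannot tell Tbcel expression in S1 cells from free RNA, since the hepatocyte-like cells were the higher ones.

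Primitive erythroid cells, the first wave of red cells from the yolk sac, carry embryonic globins and still circulate at this age. Among the cells of sixths 3 to 1, 44 had at least 10% embryonic globin (Hbb-y, Hbb-bh1 and Hba-x) in their globin UMIs, and 824 had less. Embryonic globins made up 76.0% of globin UMIs in the former and 0.293% in the latter. The genes were chosen for their height in late clusters of these same data, so their levels here are a description. The 9 genes did not behave alike in the embryonic-globin cells. Tmcc2 was at 1500 on the non-globin scale in embryonic-globin cells and 4954 in the others, a ratio of 0.303 (0.241 to 0.376), Gadd45a at 1000 and 2013, a ratio of 0.497 (0.374 to 0.647), and Slfn14 at 143 and 375, a ratio of 0.381 (0.164 to 0.758) that rests on 8 UMIs.

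Tcp11l2 was at 1250 in embryonic-globin cells and 1326 in the others, a ratio of 0.943 (0.732 to 1.198). The intervals of the remaining 5 also held 1. The embryonic-globin cells had more UMIs (median 4946 against 3882) and a higher globin share (76.6% against 63.3%), and their CD71 counts were lower (median 198.5 against 283.5), and the part of these in the ratios was not tested. All 9 ratios were below 1 in CPM too, with an interval that held 1 for Ccng2 alone. CPM counts globin, and the share of all genes below 1 was not computed for these cells on either scale. Nothing is therefore read from how many of the 9 were lower. In the cluster named primitive erythroid-like (75 cells), 1 UMI of Slfn14 was counted, against 82 of Tcp11l2 and 57 of Fam46c. Most Slfn14 UMIs of the embryonic-globin cells thus came from cells outside this cluster.

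**Figure D4:**
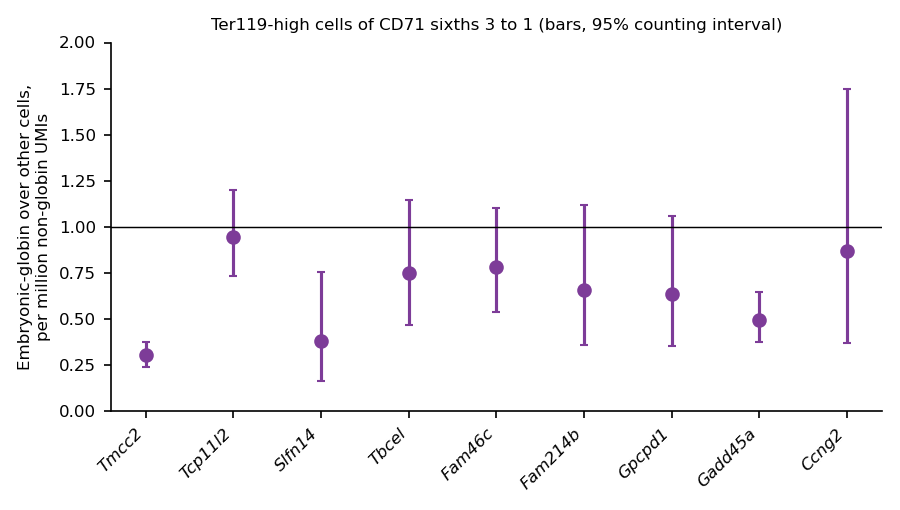
Level on the non-globin scale in 44 embryonic-globin cells over that in 824 other cells, all Ter119-high cells of CD71 sixths 3 to 1, with exact 95% counting intervals from 1 library. Tmcc2 (0.303), Slfn14 (0.381) and Gadd45a (0.497) lay below 1 with their intervals, and Tcp11l2 (0.943) near 1.

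Apart from Ccng2, the genes were lower in each named non-erythroid class than in Ter119-high cells. Because the genes were chosen as leading genes of late clusters of these data, these lower levels restate that choice. The share of all genes that were lower there was not computed. Tmcc2 was at 22.2 CPM in hepatocyte-like, 23.8 CPM in megakaryocyte-like and 33.6 CPM in myeloid-like cells, and at 122 CPM in macrophage-like cells, against 1287 CPM in Ter119-high cells. Fam214b had 21.6 CPM in megakaryocyte-like cells, above its 3.20 CPM in S1 cells, and Slfn14 had 11.2 CPM there. Gpcpd1 was at 47.6 CPM in macrophage-like cells.

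Few relatives of the 9 genes were measured. Of 24 genes listed as relatives, 6 had at least 50 UMIs in Ter119-high cells. Of these, 0 were at least 2-fold higher in sixth 1 than in sixth 6 on the non-globin scale while 2 were at least 2-fold lower. The median ratio of the 6 was 0.662, beside 0.824 over all genes, of which 8.89% were at least 2-fold higher and 19.3% at least 2-fold lower. Gadd45g, a second gene of the growth arrest family, had 1.36 (0.698 to 2.50) and Ccni, a cyclin, 1.12 (0.672 to 1.81) on that scale. Gde1, a glycerophosphodiester phosphodiesterase, had 0.333 (0.130 to 0.719). Gadd45gip1, a mitochondrial protein gene that binds Gadd45 proteins, had 0.493 (0.373 to 0.640). It is not itself a gene of the Gadd45 family, yet it counts among the 6 and among the 2 lower ones.

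Among close relatives Tmcc1 had 14 UMIs and Tmcc3 5 in all Ter119-high cells, against 10767 of Tmcc2, and the other schlafen genes had 0 to 6 UMIs each, against 901 of Slfn14. Fam46a had 11 and Fam214a 0 UMIs, against 1764 of Fam46c and 965 of Fam214b. In these families, picked after the values were seen, 1 gene held nearly all the UMIs counted at this stage. Other families were not like this. Ccng1 had 148 and Ccni 305 UMIs, against 372 of Ccng2, and Gde1 had 197, against 1222 of Gpcpd1.

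Of 12 measured FoxO and cell cycle exit genes, 2 were at least 2-fold higher in sixth 1 on the non-globin scale and 2 at least 2-fold lower. Of all genes 8.89% and 19.3% were. The median was 1.76, beside 0.824 over all genes. Nothing is read from such small counts. Btg1, an antiproliferative gene, had 2.47 (1.62 to 3.75), and Cdkn1b, the p27 cell cycle inhibitor, 2.41 (1.38 to 4.13). Ccnd3, the cyclin that sets how often erythroblasts divide, had 0.273 (0.218 to 0.337), and Cdkn2c, the p18 inhibitor, 0.244 (0.137 to 0.405). The inhibitors thus stood on both sides.

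Of 26 measured terminal erythroid genes, 10 were at least 2-fold higher and 2 lower, beside 8.89% and 19.3% of all genes. Their median was 1.84. Bpgm, the enzyme that makes 2,3-bisphosphoglycerate, had 13.8 (12.4 to 15.4), above any of the 9, and Xpo7, a nuclear exportin used in nuclear condensation, had 8.97 (7.57 to 10.7). Hemgn, a nuclear erythroid protein gene, had 0.344 (0.302 to 0.390) and Cpox, an enzyme of heme synthesis, 0.318 (0.278 to 0.362). Late erythroid genes as a list were therefore split. The 9 genes stood with its higher part, but they were chosen for their height in late cells, so nothing is read from this place.

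All 14 proliferation genes had lower levels in sixth 1, and 10 were at least 2-fold lower, beside 19.3% of all genes. Their median was 0.413. Cdc20, which drives exit from mitosis, had 0.659 (0.484 to 0.882), Birc5, the survivin gene, 0.586 (0.504 to 0.678), Mcm2 of the replication helicase 0.299 (0.199 to 0.434), and Top2a, the topoisomerase of dividing cells, 0.282 (0.216 to 0.363). Of 12 tubulin and tubulin cofactor genes, 1 was at least 2-fold higher and 2 lower, near the 8.89% and 19.3% of all genes. Their median was 0.864. Tuba1a had 9.89 (6.10 to 16.5), Tbcd 1.98 (0.726 to 4.97) and Tubg1 0.488 (0.225 to 0.947), whereas Tuba1b, with 1809 UMIs in sixth 6, had 0.488 (0.425 to 0.559). The Tuba1a ratio rests on 64 UMIs in sixth 1 and 24 in sixth 6. Tuba1a was also a leading gene of the primitive erythroid-like cluster 16, which made up 6.90% of sixth 1 and 0.345% of sixth 6. The part of these cells in its ratio was not tested.

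The profiles over 11 groups, from S0-low to sixth 1, were compared as Pearson correlations of log2 of the non-globin level plus 10, a description over groups that share 1 library. Tmcc2 and Fam46c had r = 0.997 over 11 groups, as had Fam214b and Tmcc2, and Tcp11l2 and Tbcel, so no pair is called most alike. Ccng2 and Gadd45a were least alike (r = 0.925). The profile of Ccng2 rests on few UMIs, 11 in S1 cells and 44 in sixth 6. Among 2665 genes with at least 200 UMIs in Ter119-high cells, those most like the median profile of the 9 included Bcl2l1, Rbm38, Foxo3, Ypel5, Fbxo9, Mxd1, Bsdc1, Ypel3 and Cmas, with r from 0.995 to 0.997. Bcl2l1, the survival gene that encodes Bcl-xL, was at 17.0 CPM in S1 and 261 CPM in Ter119-high cells. Foxo3, the FoxO factor active in erythroblasts, was at 44.8 and 115 CPM.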

How the data were processed

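The authors mapped the cDNA reads to mm10 with Cell Ranger and deposited a table of UMI counts, genes by cells; antibody reads were assigned per antibody and cell and deposited as raw counts. Whether antibody UMIs were collapsed is not given in the sources used here. The members and gene lists were chosen with earlier results of these data known. The study's limits on cells were applied (300 to 5000 genes, mitochondrial UMIs up to 9%). Scrublet (scanpy 1.11.5, expected rate 6%) called 128 doublets (1.63%), which were removed. Lineage-low cells lay within 2 scaled median absolute deviations above the median summed count of 5 antibodies, on a log scale. Stages below a Ter119 count of 89 were k-means classes of centered log ratios, which stand in for the study's gates. Clusters used 2000 variable genes, 16 principal components, 30 neighbours and Leiden resolution 0.8, and were named where 3 markers stood among the top 10 genes by fold. Levels are pooled sums. Intervals are exact (Poisson for levels, Clopper-Pearson for shares, conditional binomial for ratios, computed with scipy 1.17.1). With 1 library no p-value was computed. The ratio and its interval were run on simulated Poisson counts, the model that the interval assumes. That simulation held no differences between cells, so it cannot show how well the intervals hold for these cells. Genes named besides the 9 are, per list, the top 2 and bottom 2 by non-globin ratio, and the 10 with the most similar profile; the relatives with few UMIs were chosen after their values were seen. Bcl2l1 and Foxo3 among the 10 were picked for description by their known roles, and 1 of the 10 is not reported here. Promoter windows are from RefSeq (GRCm38.p6).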

Additional observations from a re-analysis of the deposited data

How the results depend on the processing

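The counts of genes at least 2-fold higher in Ter119-high than in S1 cells stayed at 9 under every alternative run for them. These were 4 in CPM and 6 on the non-globin scale, and none moved the Ter119 limit. The genes were chosen for their height in late cells and the lowest CPM ratio was 4.77, so these counts could hardly change. For sixth 1 over sixth 6, a Ter119 count of at least 60 gave 8 in CPM and 2 in UMIs per cell, and one of at least 150 gave 0, 5 on the non-globin scale, and 0. Without the fifth of cells with the fewest UMIs the CPM count was 5. Without the fifth with the most UMIs the counts were 0 in CPM, 5 on the non-globin scale and 0 in UMIs per cell. Subtracting the level of the non-erythroid-like classes gave 2 in UMIs per cell, and no CPM ratio for Ccng2, whose level in sixth 6 came to 0. Leaving out cells under 20% globin, an alternative chosen after seeing the data, gave 1 in CPM and 0 in UMIs per cell. Averaging the level over cells, in place of pooling UMIs, gave 6 on the non-globin scale, with a median ratio of 2.60. That count lay just at the limit of 1.5 times. In all, 54 counts stayed within 1.5 times the main one and 12 did not. The 12 were all for sixth 1 over sixth 6. The cause was not tested. Some of the 54 could not differ from the main count. The UMI minimum for other genes does not enter the counts of the 9 genes, and averaging UMIs per cell equals pooling them. The 54 also hold the counts for Ter119-high over S1 cells, so the tally does not measure how stable the results are. With no minimum other than 1 UMI, the shares of all genes at least 2-fold higher were 3.32%, 14.0% and 1.98%. Such shares were not computed for the other alternatives, so whether all genes moved with the 9 is not known.

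Where a gene's own interval lay to 1 side of 1, 24 ratios went to the other side, and each of the 9 genes had such a ratio on some scale; ratios whose interval held 1 also crossed it. With Ter119 of at least 150, CPM ratios were 0.898 (Ccng2), 0.908 (Fam214b), 0.789 (Gadd45a), 0.575 (Slfn14) and 0.711 (Tbcel), and UMIs per cell 0.776 (Fam46c), 0.453 (Tbcel), 0.954 (Tcp11l2) and 0.679 (Tmcc2). Without the cells with the most UMIs, CPM ratios were 0.896 (Ccng2), 0.872 (Fam214b) and 0.901 (Slfn14), the non-globin ratio of Gpcpd1 was 0.966, and UMIs per cell of Tbcel were 0.970. Ordering by CD44 gave 0.872 in UMIs per cell for Tbcel. Ordering by globin share, chosen after seeing the data, gave CPM ratios of 0.824 (Fam214b), 0.951 (Gadd45a), 0.556 (Slfn14), 0.931 (Tbcel) and 0.982 (Tmcc2), and UMIs per cell of 0.558 (Tbcel) and 0.590 (Tmcc2). Without cells under 20% globin the CPM ratios of Fam214b and Slfn14 were 0.923 and 0.987. No paired analysis was possible because the data are 1 cDNA and 1 antibody library of the same cells. Subtracting the non-erythroid level took the non-globin ratio of Ccng2 from 3.79 to 15.5. Ccng2 had 47.6 CPM in megakaryocyte-like and 43.9 CPM in myeloid-like cells, against 4.875 CPM in hepatocyte-like cells. The subtraction cannot tell free RNA from RNA of those cells themselves, so nothing is read from the 15.5. Cells under 2510 UMIs were not analysed here.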
